A study of Mus musculus with 2 samples.

Results

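The Schlafen genes of the mouse were examined in single-cell RNA sequencing (scRNA-seq) of mediastinal lymph nodes (MedLNs), the nodes that drain the lung. The members were the 7 genes named Slfn1, Slfn2, Slfn3, Slfn4, Slfn5, Slfn8 and Slfn9, out of 31053 genes counted, and all 7 were found in both libraries. They had been picked with their levels by lineage and their ratios between the libraries already known, so these values are given as a description. There were 2 libraries, each made from the pooled nodes of 4 wild-type C57/B6J mice aged 5 to 13 weeks in which asthma had been induced with ovalbumin (OVA). In this model the mice were sensitized with 50 μg of OVA on days 0 and 7, challenged from day 14 to day 16 and examined on day 17. The group without butyrate carried the asthma model and received no butyrate. The study's methods name saline as the control for butyrate supplementation. The group with butyrate, a short-chain fatty acid that gut bacteria make from dietary fiber, carried the same model and received butyrate by a route and dose that the sources used here do not give for these 2 libraries. No library from mice without asthma was analysed here. With 1 library per condition no test of the conditions was possible: intervals are exact 95% intervals for counting error alone and do not contain the spread between mice.

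Schlafen proteins share an N-terminal core domain, and the family is known for induction by interferon and for restraint of lymphocyte growth. The short members Slfn1 and Slfn2 consist of little more than this core. Slfn3 and Slfn4 are intermediate, and the long members Slfn5, Slfn8 and Slfn9 add a helicase-like C-terminal part. Loss of Slfn2 makes T cells fail to hold quiescence, and the protein is known to bind transfer RNA and protect it from cleavage. The genes sit side by side on chromosome 11 between positions 82951349 and 83215154 (GRCm38, GENCODE M21), a stretch of 264 kb. In order along the chromosome they are Slfn5 on the plus strand, Slfn9 and Slfn8 on the minus strand, and Slfn2, Slfn1, Slfn4 and Slfn3 on the plus strand. Their longest coding sequences measure 1011 bases in Slfn1, 1134 in Slfn2, 1806 in Slfn4, 1920 in Slfn3, 2652 in Slfn5 and 2730 in both Slfn8 and Slfn9. The 2 further Schlafen genes in the count tables were almost silent, with 1 UMI of Slfn14 without butyrate and 1 UMI of Slfnl1 with butyrate. The antisense gene Slfn5os, which overlaps Slfn5, had 2 UMIs and 0.

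Since interferon is the family's known inducer, the RefSeq promoters of the members (250 bases before to 50 bases after a gene's start, GRCm38.p6) were searched on both strands for the interferon-stimulated response element written as GAAANNGAAA and for the gamma-activated site written as TTCNNNGAA. The 7 members had 8 promoters of this length. The first motif was found in 3 members, the long ones Slfn5, Slfn8 and Slfn9, and in 3.44% of all 32851 promoters. The second motif was in none of the members and in 8.3% of all promoters. Among 28 genes of a list of interferon-stimulated genes that had a promoter, 14 held the first motif. Of the 4 promoters with a match, 1 for each long member is printed with the match in capitals, because they set the long members apart from the rest, and that of Slfn1, the member most restricted to T cells, stands beside them without a match. They lie at chr11:82951852-82952151 on the plus strand (Slfn5), chr11:83020761-83021060 on the minus strand (Slfn8, the promoter that starts farther upstream of 2), chr11:82991781-82992080 on the minus strand (Slfn9) and chr11:83116570-83116869 on the plus strand (Slfn1).
Slfn5: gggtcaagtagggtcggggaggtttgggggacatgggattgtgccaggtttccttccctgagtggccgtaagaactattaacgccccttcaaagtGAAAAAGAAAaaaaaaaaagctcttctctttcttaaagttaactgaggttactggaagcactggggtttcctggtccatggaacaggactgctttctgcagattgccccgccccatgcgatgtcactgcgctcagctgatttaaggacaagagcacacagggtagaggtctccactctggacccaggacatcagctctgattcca
Slfn8: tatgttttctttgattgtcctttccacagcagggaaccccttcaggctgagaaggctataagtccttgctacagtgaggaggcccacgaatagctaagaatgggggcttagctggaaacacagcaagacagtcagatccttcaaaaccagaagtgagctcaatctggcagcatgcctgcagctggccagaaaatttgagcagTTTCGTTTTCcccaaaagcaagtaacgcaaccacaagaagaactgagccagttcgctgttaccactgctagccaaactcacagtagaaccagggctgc
Slfn9: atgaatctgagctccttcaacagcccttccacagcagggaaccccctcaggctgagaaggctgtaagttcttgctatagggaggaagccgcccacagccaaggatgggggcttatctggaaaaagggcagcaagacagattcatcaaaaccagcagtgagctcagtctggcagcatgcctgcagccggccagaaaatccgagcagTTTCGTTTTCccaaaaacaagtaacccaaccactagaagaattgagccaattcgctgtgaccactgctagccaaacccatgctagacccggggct
Slfn1: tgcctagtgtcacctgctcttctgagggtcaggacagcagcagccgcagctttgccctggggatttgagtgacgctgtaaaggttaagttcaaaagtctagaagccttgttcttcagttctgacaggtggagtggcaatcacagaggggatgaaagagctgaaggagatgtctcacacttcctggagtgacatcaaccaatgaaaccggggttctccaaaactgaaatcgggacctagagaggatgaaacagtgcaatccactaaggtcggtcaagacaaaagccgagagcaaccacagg
Slfn8 and Slfn9 carried the same 10 bases, on the other strand, whose first base lay 48 and 45 bases upstream of the start, whereas the match of Slfn5 began 155 bases upstream. The other Slfn8 promoter holds the same match, which there begins 136 bases upstream of its start. A match is a run of letters and was not tested for binding. Runs that differ from the motif by a letter were not searched for, so the split between long and other members holds for the exact letters alone.

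Barcodes were dropped when mitochondrial UMIs passed 10%, when fewer than 200 genes were seen, or when they looked like doublets, after which 8774 cells without butyrate and 8013 with butyrate remained, with medians of 5075 and 5649 UMIs per cell (a UMI is a barcode that marks 1 captured RNA molecule). Of the deposited barcodes, 25 occurred in both libraries. Lineages were set from the UMIs of 5 genes. B lineage cells (Cd79a) numbered 4130 and 3883, CD4+ T cells (Cd3e and Cd4) 1044 and 934, CD8+ T cells (Cd3e and Cd8a) 1608 and 1648, and Cd4-Cd8a- T cells (Cd3e alone) 1143 and 899. Lyz2+ myeloid cells were few, at 35 and 28. Markers not used for the gates followed them: a set of 8 B cell markers summed to 5472 and 5918 CPM (counts per 1000000 UMIs) in B lineage cells against at most 54.9 CPM in the other lineages, and 10 T cell markers to 5919 to 6990 CPM in the 3 T cell lineages against at most 123 CPM elsewhere. Cd4-Cd8a- T cells summed to 1020 and 1031 CPM of 4 CD8 markers (Cd8b1, Nkg7, Ccl5 and Ly6c2), against 2454 and 2406 CPM in CD8+ T cells. For a set of 5 CD4 markers they summed to 307 and 290 CPM, against 477 and 442 CPM in CD4+ T cells. They are thus named only for the absence of a Cd4 or Cd8a UMI. The B lineage had a summed level of 6 plasma cell markers of 977 CPM without and 329 CPM with butyrate. Within the Lyz2+ gate 6 neutrophil markers summed to 3293 CPM without and 11950 CPM with butyrate, and 1 of the 6 was at 0 in each library. Cells of this gate with at least 5 UMIs of the neutrophil gene S100a8 numbered 3 without and 1 with butyrate, so the higher sum does not count more such cells.

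Slfn2 was the member with the most UMIs in every lineage. It gave 22060 UMIs without butyrate, which is 59.04% of all UMIs of the 7 members, and 18286 with butyrate, or 63.7%. Its level per lineage without butyrate was 557 CPM in Cd4-Cd8a- T cells, 539 in CD4+ T cells, 528 in Lyz2+ cells, 377 in B lineage cells and 351 in CD8+ T cells. The first 3 of these had overlapping intervals. With butyrate the levels were 450 CPM in Cd4-Cd8a- T cells, 451 in CD4+ T cells, 336 in Lyz2+ cells, 325 in B lineage cells and 303 in CD8+ T cells. The gene was therefore broad, with CD4+ T cells at 1.43 times and 1.39 times the B lineage level. On the log2 scale CD8+ T cells lay 0.10 below B lineage cells in both libraries, but the sign turned, to 0.06 and 0.11 above, when ribosomal protein, mitochondrial and immunoglobulin genes were left out of the totals. At least 1 Slfn2 UMI was found in 73.2% and 68.5% of B lineage cells and in 90.1% and 88.5% of CD4+ T cells. With each cell thinned to 2000 UMIs these shares were 49.7% and 43.4%, and 64.1% and 60.9%.

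Slfn1, the other short member, followed the T cell lineages. Without butyrate its level was 295 CPM in Cd4-Cd8a- T cells, 281 in CD4+ T cells, 213 in CD8+ T cells, 102 in Lyz2+ cells and 11.3 in B lineage cells. With butyrate it was 218 CPM, 191, 150, 57.3 and 5.98 in the same order. Without butyrate the Cd4-Cd8a- and CD4+ T cells overlapped in their intervals, and with butyrate the Cd4-Cd8a- T cells lay above. Lyz2+ cells were few, with 32 and 20 Slfn1 UMIs. The log2 ratio of CD8+ T over B lineage cells was 4.24 (95% interval 4.05 to 4.43) without and 4.65 (4.39 to 4.92) with butyrate, or 18.9-fold and 25.1-fold. CD8+ T cells lay below CD4+ T cells by a log2 ratio of -0.40 (-0.49 to -0.31) and -0.35 (-0.45 to -0.25).

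Free RNA in a droplet can put T cell transcripts into B cells, so the B lineage level of Slfn1 was set beside that of T cell genes measured the same way. In B lineage cells Cd3d, Trbc2 and Cd8b1 stood at 0.319% to 0.959% of their CD8+ T level without butyrate and at 0.514% to 1.1% with butyrate. Slfn1 in B lineage cells stood at 0.053 times its CD8+ T level without butyrate and at 0.04 times with butyrate, above all 3 of these genes. A Slfn1 UMI was found in 4.46% of B lineage cells without butyrate and 2.42% with butyrate, where a Cd3d UMI was found in 4.02% and 5.02%. Of the 184 B lineage cells with a Slfn1 UMI without butyrate, 14.7% (9.9 to 20.6%) also held a UMI of Cd3d, Cd3g or Trbc2, against 12.4% (11.4 to 13.5%) of the B lineage cells with none. With butyrate the shares were 13.8% (7.57 to 22.5%) of 94 cells and 14.5% (13.4 to 15.6%). The intervals overlapped in both libraries. Cells with a Slfn1 UMI had more UMIs in all, with medians of 5932 against 4366 without butyrate and 6588 against 4595 with butyrate. Depth was not held equal and such shares depend on it, so they cannot tell the part of free RNA. The summed level of the 3 T cell genes was 31.6 against 27.1 CPM without butyrate and 67.4 against 32.0 CPM with butyrate, the higher value each time in the cells with a Slfn1 UMI.

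Slfn5, a long member whose human counterpart is known as a regulator of interferon-responsive transcription, was highest in Lyz2+ cells. Its level without butyrate was 334 CPM (273 to 404) in the 35 Lyz2+ cells, 134 in Cd4-Cd8a- T cells, 117 in CD4+ T cells, 57.3 in CD8+ T cells and 54.6 in B lineage cells. With butyrate it was 94.6 CPM (65.1 to 133) in the 28 Lyz2+ cells, 81.9 in Cd4-Cd8a- T cells, 73.2 in CD4+ T cells, 39.5 in CD8+ T cells and 37.2 in B lineage cells. Lyz2+ cells stood apart from every T cell gate without butyrate, and with butyrate their interval overlapped those of Cd4-Cd8a- and CD4+ T cells. Without butyrate 18 of the 105 Slfn5 UMIs of Lyz2+ cells came from 1 cell, which the interval does not cover. Of the T cells, those with Cd4 had 2.14 times and 1.97 times the B lineage level, whereas CD8+ T and B lineage cells differed by less than counting error, with log2 ratios of 0.07 (-0.07 to 0.21) and 0.09 (-0.07 to 0.24), and in thinned cells they turned to -0.18 and -0.07.

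Slfn8 and Slfn9 are neighbours on the minus strand with coding sequences of equal length, and their levels were far apart. Slfn8 was at 49.6 CPM in B lineage cells, 74.9 in CD4+ T cells, 69.5 in CD8+ T cells, 80.7 in Cd4-Cd8a- T cells and 73.2 in Lyz2+ cells without butyrate. With butyrate these levels were 39, 57.5, 54.4, 63.3 and 22.9 CPM. The intervals of the 3 T cell gates overlapped in each library. B lineage cells lay below the T cell gates, with a log2 ratio of CD8+ T over B lineage cells of 0.49 (0.35 to 0.62) and 0.48 (0.34 to 0.62). Slfn9 gave 243 and 200 UMIs in all. Its level was 7.91 and 7.88 CPM in CD4+ T cells, 4.4 and 3.99 in CD8+ T cells and 3.48 and 2.47 in B lineage cells. The log2 ratio of CD4+ T over B lineage cells was 1.19 (0.65 to 1.71) and 1.67 (1.09 to 2.25). Both genes share sequence with Slfn10-ps, a pseudogene on the same strand just beyond Slfn8 that was not among the genes counted: of all 90-base windows in the last 500 bases of their annotated transcripts, 9.49% (Slfn8) and 9.65% (Slfn9) occur letter for letter in it, and 2.52% and 1.46% occur in each other. By their letters alone, reads from such windows cannot be assigned to 1 gene. How reads from windows shared with the uncounted pseudogene were counted was not examined.

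Slfn3 and Slfn4, the intermediate members, were rare. Slfn3 was found in 72 and 49 cells, with 79 and 51 UMIs. Its level was highest in CD4+ T cells without butyrate, at 2.89 CPM (1.74 to 4.51), where B lineage and CD8+ T cells had 0.936 and 0.914 CPM, and it overlapped the 2.31 CPM (1.26 to 3.87) of Cd4-Cd8a- T cells. With butyrate CD4+ T cells had 1.52 CPM (0.727 to 2.79) and B lineage and CD8+ T cells 0.841 and 0.713 CPM, with overlapping intervals. No Slfn3 UMI was found in Lyz2+ cells, which allows a level of up to 9.54 and 8.6 CPM at 3 UMIs.

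Slfn4, a gene known from macrophages and neutrophils, was found almost only in cells with myeloid transcripts. All 38 of its UMIs without butyrate lay in 12 cells, and all 6 with butyrate in 6 cells. Of the 12 cells every one also held UMIs of Tyrobp and Fcer1g, 11 held Cst3 and Spi1, 10 held Lyz2, 7 held Csf1r and 5 held S100a8. Some of the 12 also held lymphocyte transcripts, Cd79a in 3 and Cd3e in 2. Of the 6 cells, 5 held Tyrobp, 5 Fcer1g, 5 Cst3, 5 Spi1 and 5 Lyz2, 3 held Csf1r and 2 held S100a8. Cd79a was found in 1 of the 6 and Cd3e in 1, and 1 of the 6 lay in the Cd4-Cd8a- T cell gate. A set of 10 myeloid markers was not at 0 in B lineage cells, where it summed to 1074 and 1097 CPM, against 12010 and 10980 CPM in Lyz2+ cells. The share of all cells with each of these transcripts was not set beside these counts. Cells outside every lineage gate held 23 of the 38 UMIs and 1 of the 6. Lyz2+ cells had 15 UMIs in 5 cells without butyrate, a level of 47.7 CPM (26.7 to 78.7), and 4 UMIs in 4 cells with butyrate, a level of 11.5 CPM (3.13 to 29.4). B lineage, CD4+ T and CD8+ T cells had no UMI in either library. Against the level that 3 UMIs would give in B lineage cells, the level in Lyz2+ cells was 357-fold without butyrate and 81.9-fold with butyrate. The same quotient was 104-fold and 25.2-fold against CD4+ T cells, and 191-fold and 53.6-fold against CD8+ T cells. These quotients take the Lyz2+ levels, from 15 UMIs and 4 UMIs, as fixed. The counting intervals of those levels are not in them, so they are not lower bounds.

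**Figure D1:**
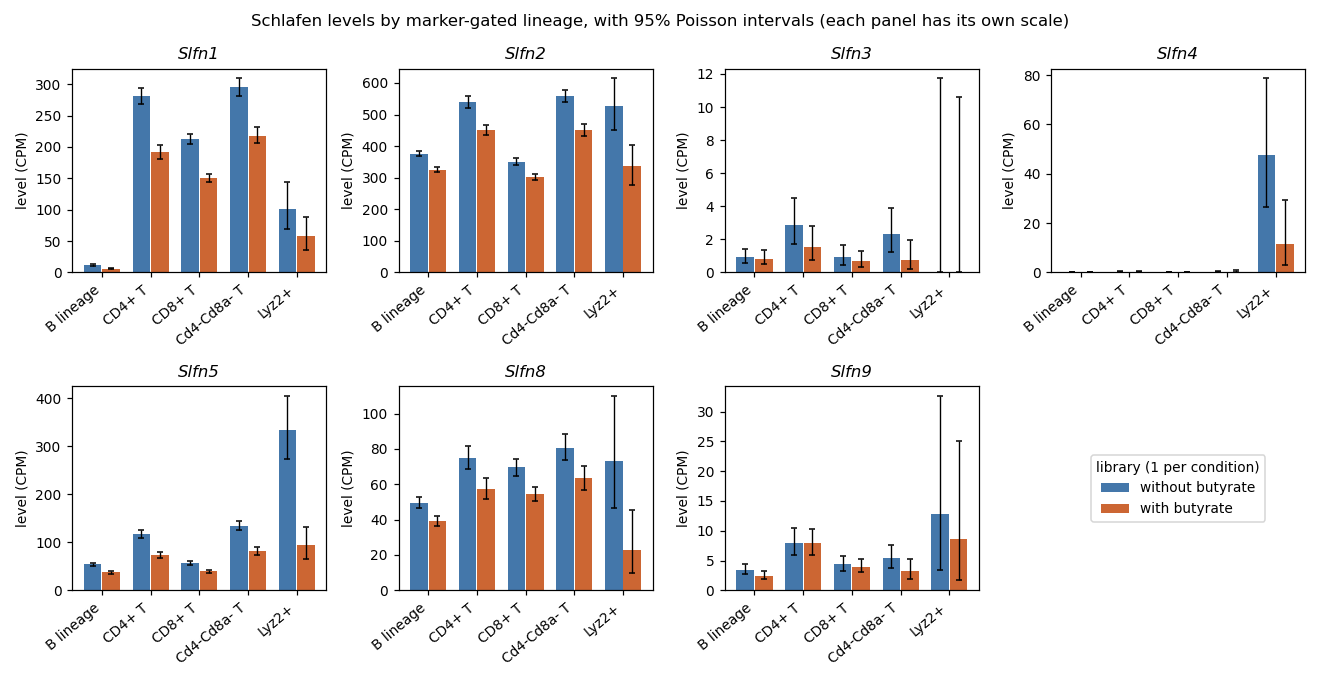
Level of each Schlafen gene (vertical axes, CPM, a scale of its own in each panel) in 5 marker-gated lineages of the library without butyrate (blue) and with butyrate (orange); bars are summed UMIs per 1000000 and lines are exact 95% Poisson intervals. Slfn1 is close to 0 in B lineage cells, at 11.3 and 5.98 CPM, Slfn4 has a visible bar only in Lyz2+ cells, and the orange bar is the lower one for Slfn1, Slfn2, Slfn5 and Slfn8 in every lineage.

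The libraries were then compared. A log2 CPM ratio of the library with butyrate over that without was formed for genes with at least 50 UMIs in both together, and a gene was counted as lower or higher when the ratio reached 0.5 in size. Of the 7 members, 6 reached 50 UMIs in all cells. All 6 ratios were below 0, 3 reached -0.5, none reached 0.5, and the median was -0.46. Over all 12138 genes the median was 0.02, with 3.94% lower and 2.93% higher. The members had been chosen with this contrast in view, so nothing is read from the count.

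Slfn5 had the lowest ratio, at -0.72 (-0.80 to -0.65), going from 79.3 to 48.0 CPM. Slfn3 followed at -0.62 (-1.16 to -0.10), from 1.5 to 0.977 CPM. Slfn1 was at -0.53 (-0.58 to -0.48), from 142 to 98.3 CPM. These 3 were past the threshold, and the intervals of Slfn3 and Slfn1 contained it. Slfn1 was the member just past the threshold. Slfn8 was short of it at -0.39 (-0.46 to -0.31), an interval that left out -0.5, from 63.2 to 48.2 CPM. Slfn9 was at -0.27 (-0.55 to 0.00), from 4.62 to 3.83 CPM. Slfn2, the most abundant, was at -0.26 (-0.29 to -0.23), from 420 to 350 CPM. Slfn4 had too few UMIs for a ratio. The narrow intervals of the abundant genes count molecules and say nothing of mice.

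Within lineages the members again lay below 0. Their median was -0.49 in B lineage, -0.38 in CD4+ T, -0.35 in CD8+ T, -0.44 in Cd4-Cd8a- T and -0.83 in Lyz2+ cells, where the median of all genes was 0.05, 0.00, 0.00, 0.02 and -0.07. The Lyz2+ median was over 3 members, against 5 in the other lineages, and was the Slfn1 value. That value rests on 32 and 20 UMIs, and its interval contained 0 (-1.71 to 0.02). Among B lineage cells 5 members reached 50 UMIs, all below 0, and 2 were lower than -0.5 (4.10% of all genes were lower and 1.93% higher): Slfn1 at -0.92 (-1.23 to -0.60) and Slfn5 at -0.55 (-0.68 to -0.42). In CD4+ T cells all 5 were below 0 and 2 were lower (3.54% of all genes lower, 2.73% higher), Slfn5 at -0.68 (-0.84 to -0.51) and Slfn1 at -0.55 (-0.66 to -0.45). In CD8+ T cells all 5 were below 0 and the same pair reached the threshold (3.10% lower, 2.24% higher), Slfn5 at -0.54 (-0.70 to -0.37) and Slfn1 at -0.51 (-0.59 to -0.42). The count of 2 in CD8+ T cells went to 1 or 0 under 5 of the alternative settings, since both ratios lay next to the threshold. In Cd4-Cd8a- T cells all 5 were below 0 and 2 were lower (3.63% lower, 4.29% higher), Slfn9 at -0.74 (-1.68 to 0.14), from 33 and 17 UMIs, and Slfn5 at -0.71 (-0.89 to -0.54). Slfn9 only just met the minimum of 50 UMIs there, so it could enter the count through the library where it was higher.

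Slfn2 and Slfn8 were short of the threshold in these 4 lineages. The ratio of Slfn2 was -0.21 in B lineage cells, -0.26 in CD4+ T cells, -0.21 in CD8+ T cells and -0.31 in Cd4-Cd8a- T cells. That of Slfn8 was -0.35, -0.38, -0.35 and -0.35 in the same order, and each of these 8 intervals lay below 0. In thinned cells Slfn8 was at -0.09 (-0.37 to 0.19) in CD8+ T cells and at -0.52 in CD4+ T cells, and with a stricter gate it was at -0.18 in Cd4-Cd8a- T cells. Slfn9 in CD4+ T cells had 52 UMIs in either library and a ratio of -0.01 (-0.59 to 0.58). The sign of this ratio turned under 3 alternative settings, and with the mean of per-cell CPM it was -0.63, outside the interval. With butyrate 9 of the 52 UMIs came from 1 cell.

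The Lyz2+ cells had the lowest value of any lineage, Slfn5 at -1.82 (-2.43 to -1.24) from 105 and 33 UMIs. In each library 4 cells held at least 50% of these UMIs, and 18 of the 105 came from 1 cell. The counting interval does not cover such concentration. Slfn1 was at -0.83 (-1.71 to 0.02) and Slfn2 at -0.65 (-1.01 to -0.30), and the other members had fewer than 50 UMIs. Ratios spread widely in so few cells, with 19.7% of genes lower and 11.7% higher. Of the 20 Slfn1 UMIs in the Lyz2+ cells with butyrate, 14 came from 1 cell, which held at least 5 S100a8 UMIs. Without cells of this kind Slfn1 had 25 UMIs without and 6 with butyrate, or 81.4 and 17.8 CPM. The neutrophil marker sum differed between the libraries in this gate, as given above, and without the 3 cells and 1 cell that held at least 5 S100a8 UMIs the ratio of Slfn5 was -1.88 (-2.51 to -1.29) and that of Slfn2 -0.73 (-1.10 to -0.37). The plasma cell markers differed in the B lineage. Without cells that held plasma cell markers (34 and 11 cells), the ratio of Slfn1 was -0.94, of Slfn5 -0.59, of Slfn8 -0.38 and of Slfn2 -0.25, each lower than with those cells. In a pool of nodes, a lower summed level can come from fewer cells with the transcript or from less RNA per cell.

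**Figure D2:**
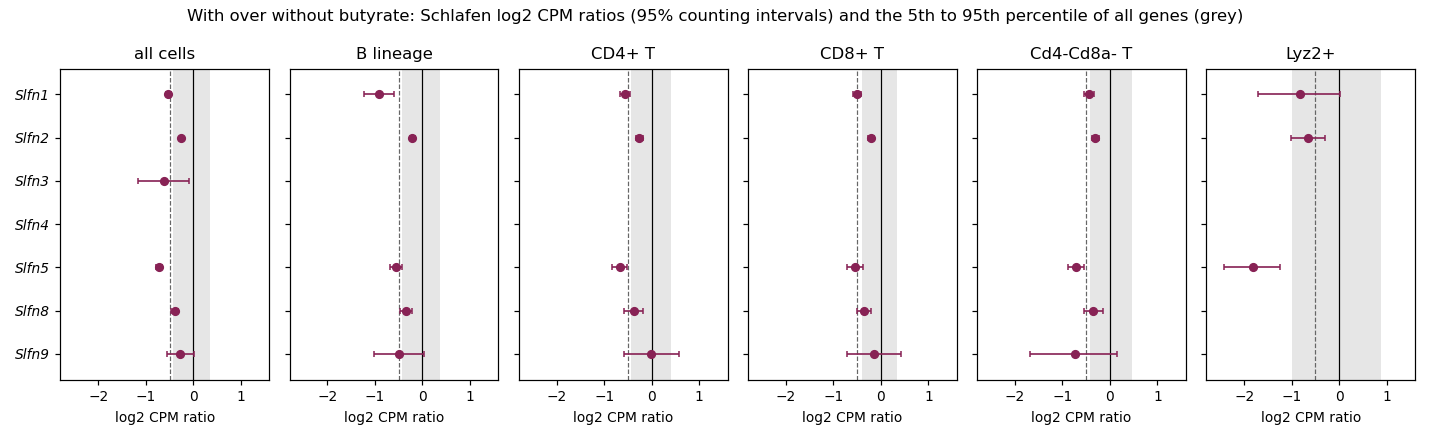
Log2 CPM ratio of the library with butyrate over that without (horizontal axis) for each Schlafen gene with at least 50 UMIs, in all cells and in 5 lineages; lines are exact 95% counting intervals, the dashed line is -0.5 and the grey band holds the ratios of all genes from the 5th to the 95th percentile. Every point lies at or left of 0, from -0.01 for Slfn9 in CD4+ T cells to -1.82 for Slfn5 in Lyz2+ cells.

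Other interferon-stimulated genes were compared as a list of 38 counted genes, none of them a Schlafen gene. In all cells all 38 had ratios below 0, 27 were at or below -0.5, none was at or above 0.5, and the median was -0.76. Of all genes 3.94% were lower and 2.93% higher. The lowest were Ifi44 at -2.23 (208 and 44 UMIs), Oas2, a sensor of double-stranded RNA, at -1.63 and Ifit3b, of a family that binds viral RNA, at -1.54. The highest were Ddx58, which encodes the RNA sensor RIG-I, at -0.15, Samd9l at -0.25 and Tor3a at -0.28. The Schlafen values of -0.26 to -0.72 thus lay inside the range of this list, toward its upper end. By lineage 24 of 37 genes of the list were lower in B lineage cells, 30 of 37 in CD4+ T cells, 25 of 38 in CD8+ T cells, 31 of 37 in Cd4-Cd8a- T cells and 9 of 9 in Lyz2+ cells, and none was higher. Of all genes 4.10%, 3.54%, 3.10%, 3.63% and 19.7% were lower in the same order. In Lyz2+ cells a gene could reach 50 UMIs through the library where it was higher. The list was chosen with earlier results of these data known, so nothing is read from these counts.

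The upstream parts of the pathway differed less. None of the 7 receptor and kinase genes of the list was past 0.5 in either direction in all cells, in B lineage cells or in the 3 T cell lineages. Jak1, the kinase that serves both interferon receptors, stood at 355 and 369 CPM, with a ratio of 0.06. Ifngr1, of the interferon gamma receptor, was at -0.11 in all cells, at -0.35 (-0.51 to -0.18) in CD4+ T cells, at -0.30 (-0.40 to -0.21) in CD8+ T cells and at 0.21 (0.09 to 0.32) in B lineage cells. Its T cell values were thus similar in size to those of Slfn2 and Slfn8. Ifngr2, its second chain, was at 0.06 in all cells. In Lyz2+ cells, where 19.7% of all genes were lower, so were 3 of 4 measured genes of this list. They were Jak1 at -0.92, Ifngr2 at -0.89 and Ifnar2, of the type I receptor, at -0.74. Of 10 interferon genes, only Ifng reached 50 UMIs. It was higher with butyrate, with 155 and 685 UMIs and a ratio of 2.15, but 442 of the 685 UMIs came from 1 cell. In Cd4-Cd8a- T cells, with 27 and 33 UMIs, it was at 0.51 (-0.27 to 1.30). No UMI of Ifnb1 or of the 4 Ifna genes counted was found in either library.

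Slfn2 is known for quiescence and for its guard of transfer RNA, so genes of these processes were listed too. Of 21 quiescence genes none was past 0.5 in all cells, in CD4+ T or in CD8+ T cells, with a median of -0.02 in all cells. The most abundant were Klf2, a factor of naive lymphocytes, at 0.05, Btg1, which restrains proliferation, at -0.08, and Foxp1, which holds T cells quiescent, at -0.02. Outside those populations Tcf7 was at 0.72 and Tsc2 at 0.50 in B lineage cells, and Klf4 was at 1.18 and Tsc1 at 0.66 in Cd4-Cd8a- T cells. T cell genes in B lineage cells were also higher with butyrate: Cd3d at 8.21 and 10.3 CPM, Trbc2 at 14.4 and 16.5, and Cd8b1 at 2.94 and 4.95. The part of free T cell RNA in the Tcf7 value was not tested. In Lyz2+ cells Klf4 was at 0.64, Btg2 at 0.55, Klf6 at -0.85 and Btg1 at -0.67. Of 11 genes of transfer RNA cleavage and translational stress, 9 reached 50 UMIs in all cells and none was past 0.5. The most abundant were Atf4, the stress response factor, at 0.15, Rnh1, the ribonuclease inhibitor, at 0.10 and Nsun2, a transfer RNA methyltransferase, at 0.20. A list of 16 heat shock and immediate early genes, which mark handling, had 1 gene lower and none higher in all cells, with a median of -0.01. In CD4+ T cells 13 of 15 measured genes of this list lay below 0, with a median of -0.22, and in CD8+ T cells 12 of 15, with a median of -0.22. The part of handling in the Schlafen ratios of these cells was not tested.

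To describe the Schlafen genes by a cell's interferon response, each cell was thinned to 2000 UMIs and binned by its UMIs of the 38 other genes. Cells of under 2000 UMIs (101 and 57) were left out. The mean was 5.64 such UMIs per cell without and 3.34 with butyrate. Cells with over 10 made up 13.97% of all cells without butyrate and 4.81% with butyrate, and cells with none 7.45% and 14.9%.

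Slfn5 differed most along this axis over all cells, from 31.0 to 328 CPM between the lowest and the highest bin without butyrate and from 21.1 to 307 CPM with butyrate. Slfn1 went from 51.9 to 353 CPM and from 58.7 to 287 CPM, over bins that also differed in their share of B lineage cells. Within CD4+ T cells Slfn1 went from 274 to 517 CPM without butyrate and from 170 to 492 CPM with butyrate. In the bin of 1 to 2 it was lower than in the lowest bin there, at 215 and 152 CPM. Among B lineage cells without butyrate the Slfn5 level was 24.6 CPM in cells with no such UMI, 24.2 with 1 to 2, 36.4 with 3 to 5, 88.5 with 6 to 10 and 380 with over 10. With butyrate the Slfn5 levels were 11.1, 22.3, 31.3, 80.6 and 371 CPM. The 2 libraries nearly coincided in the top bin, where the log2 ratio of Slfn5 was -0.03 (-0.38 to 0.30). In CD8+ T cells Slfn5 went from 30.5 to 181 CPM between the lowest and the highest bin without butyrate and from 19.3 to 256 CPM with butyrate. Slfn8 went from 19.9 to 177 CPM and from 21.5 to 146 CPM in B lineage cells. Slfn2, which was high in every bin, went from 293 to 702 CPM and from 284 to 661 CPM there. Slfn1 went from 122 to 368 CPM and from 138 to 407 CPM in CD8+ T cells, and from 4.69 to 46.3 CPM and from 2.77 to 14.3 CPM, with 4 UMIs in either of the bins with butyrate, in B lineage cells.

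Between libraries, the thinned ratio over all cells was -0.84 for Slfn5, -0.61 for Slfn1, -0.40 for Slfn8 and -0.29 for Slfn2. When both libraries were given the same share of cells in each bin, these became -0.17, -0.21, 0.01 and -0.13. For B lineage cells the same step moved Slfn1 from -1.28 to -0.90 and Slfn5 from -0.73 to -0.15. In CD4+ T cells it moved Slfn1 from -0.70 to -0.40 and Slfn5 from -0.77 to -0.22. In CD8+ T cells it moved Slfn5 from -0.63 to 0.13 and Slfn8 from -0.09 to 0.25. No interval was formed for the values with equal shares. In CD8+ T cells with butyrate the top bin held 44 Slfn5 UMIs in 86 cells. Before thinning, 36 of the 554 Slfn5 UMIs there came from 1 cell. Within bins of all cells, Slfn1 was below 0 with an interval that left out 0 in 2 of 5 bins, those with 1 to 2 and with over 10 UMIs, at -0.32 and -0.30. The same held for Slfn2 in 3 bins, at -0.17 with 1 to 2, -0.16 with 3 to 5 and -0.23 with over 10, and for Slfn5 in 1 bin, at -0.33 with 6 to 10. Within lineages, bins with intervals that left out 0 lay on both sides of it. Slfn2 in CD4+ T cells with none was at 0.63 (0.05 to 1.26), and Slfn8 in CD8+ T cells with 6 to 10 at 0.81 (0.18 to 1.44). Others lay below 0, such as Slfn1 in CD4+ T cells with 3 to 5 at -0.48 (-0.83 to -0.14). Cells of a higher bin also differed in type. Without butyrate B lineage cells were 426 of the 646 cells in the lowest bin and 324 of the 1212 in the highest. With butyrate they were 721 of 1184 and 140 of 383. Values over all cells therefore mix lineages, and differences in type within a lineage were not tested.

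**Figure D3:**
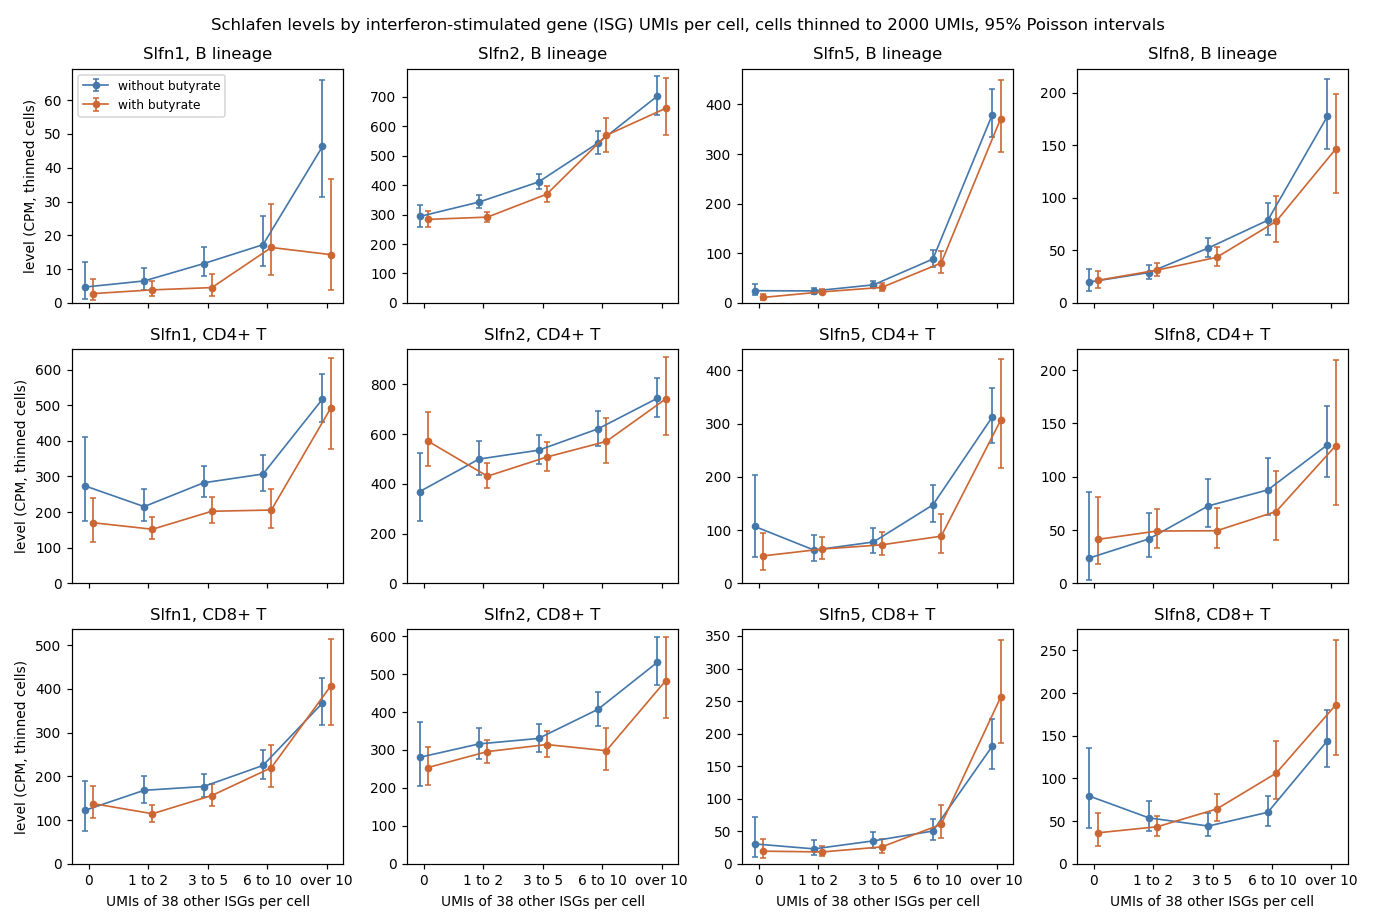
Level of Slfn1, Slfn2, Slfn5 and Slfn8 (vertical axes, CPM of cells thinned to 2000 UMIs) by the number of UMIs of 38 other interferon-stimulated genes in the cell (horizontal axes), in B lineage, CD4+ T and CD8+ T cells, for the library without butyrate (blue) and with butyrate (orange) with exact 95% Poisson intervals. Slfn5 in B lineage cells climbs to 380 and 371 CPM in the bin of over 10, and the 2 lines run close together.

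Finer gates showed how the members varied within lineages. Foxp3+ CD4+ T cells, the regulatory T cells, numbered 95 and 85. They had 93.6 CPM (75.6 to 114) of Slfn1 without and 80.6 CPM (63.7 to 101) with butyrate, below the 281 and 191 CPM of CD4+ T cells as a whole. Slfn9 was higher in them, at 16.9 CPM (9.86 to 27.1) from 17 UMIs and 32 CPM (21.8 to 45.5) from 31 UMIs, against 7.91 and 7.88 CPM, and the intervals overlapped without butyrate. Of the 52 Slfn9 UMIs in all CD4+ T cells with butyrate 9 came from 1 cell, and 14, which may include those 9, from the 23 cells with Cxcr5 and Pdcd1, a concentration that the Poisson interval does not cover. Cells with Cxcr5 and Pdcd1, the markers of T follicular helper cells, numbered 24 and 23. They had 584 and 424 CPM of Slfn2 and 96.6 and 60.2 CPM of Slfn1.

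Cells with Mki67 or Top2a, 2 genes of the cell cycle, were lower in Slfn1, Slfn2, Slfn5 and Slfn8 than cells with neither. Among T cells the log2 ratio of the first over the second was -1.03 (-1.18 to -0.89) and -0.85 (-1.04 to -0.67) for Slfn1. It was -0.54 (-0.64 to -0.45) and -0.44 (-0.56 to -0.33) for Slfn2. For Slfn5 it was -1.36 and -0.84, and for Slfn8 -0.99 and -0.55, all with intervals below 0. Slfn9 was higher in these cells, at 1.31 (0.72 to 1.86) from 37 and 101 UMIs without butyrate and at 2.32 (1.76 to 2.87) from 44 and 81 UMIs with butyrate. With butyrate 1 CD4+ T cell held 9 Slfn9 UMIs. Whether it is among the cells with Mki67 or Top2a was not examined, and the counting interval does not cover such concentration. Among B lineage cells Slfn9 was at 0.13 (-0.89 to 1.03) without butyrate and at 1.43 (0.27 to 2.45) with butyrate. The 34 plasma-gated cells without butyrate had 30.4 CPM of Slfn2 against 376 in the B lineage as a whole. Cells of these gates hold different amounts of RNA, and CPM are shares of it. The share of all genes that were lower in cells with Mki67 or Top2a was not formed. How common such lower values are was therefore not tested, and nothing is read from the number of members.

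**Figure D4:**
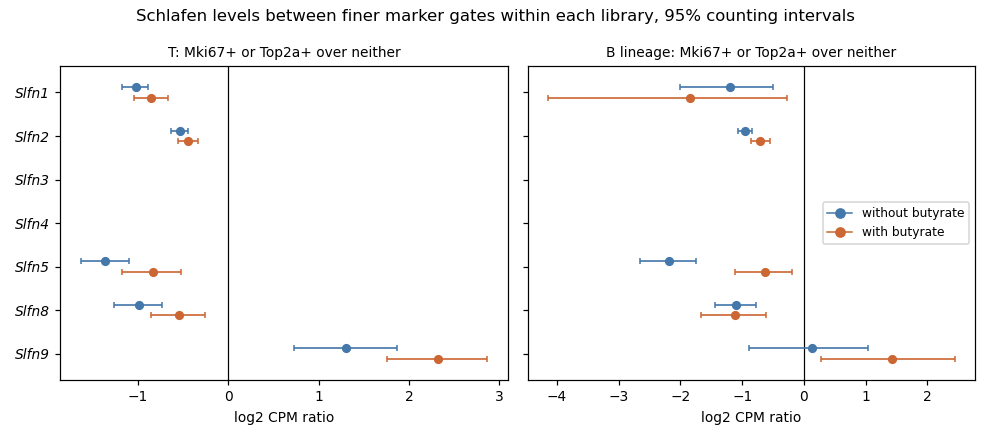
Log2 CPM ratio (horizontal axes) of each Schlafen gene between 2 gates within a library, for T cells and B lineage cells with Mki67 or Top2a over those with neither; points are the library without (blue) and with butyrate (orange), lines exact 95% counting intervals, and genes under 50 UMIs are blank. Slfn9 is the member right of 0 among the T cells, at 1.31 and 2.32, while Slfn1 is left of 0 in both panels.

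Across the 10 sums of 5 lineages and 2 libraries, the genes most like each member were found by Pearson's r of log2(CPM + 10) among genes with at least 200 UMIs. The points share libraries and lineages, so r is a description. Slfn1 was most like Ms4a6b (r = 0.987), Emb (0.987) and Atp1b3 (0.987). Slfn5 was most like Ier3ip1 (0.970), Pgrmc2 (0.949) and Ifnar1 (0.928), and Slfn8 like Ifit2 (0.964), itself an interferon-stimulated gene, Pttg1 (0.957) and Uty (0.949). Slfn2 was most like Srp14 (0.917), Tpp2 (0.909) and St8sia6 (0.905). For the rare members r rests on few UMIs: Slfn9 was most like Atp5g3 (0.970), Ndufs6 (0.966) and Pkm (0.961), and Slfn3 like Arpp19 (0.944), Slc39a3 (0.903) and Nxt1 (0.903). Among the members themselves the highest r were 0.830 for Slfn5 with Slfn9 and 0.782 for Slfn2 with Slfn5, and the lowest was -0.599 for Slfn3 with Slfn4. No minimum of UMIs was set for these pairs, and Slfn3 (79 and 51 UMIs) and Slfn4 (38 and 6) were under 200. In Lyz2+ cells Slfn9 had 4 and 3 UMIs and Slfn3 had none.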

How the data were processed

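Cells of MedLNs were captured with the 10x Chromium 3′ v3 kit, 1 library per group. The deposited values are raw UMI counts per gene and cell barcode, which the authors made with Cell Ranger 6.0.1 on mm10 per the submitters' processing notes; the annotation was not given in the sources used here. The libraries held 59176459 and 58381292 UMIs in 9681 and 8932 barcodes. From these counts, 186 and 327 barcodes were removed for over 10% mitochondrial UMIs or under 200 genes, as in the study, and then 721 and 592 likely doublets, ranked by Scrublet in scanpy 1.11.5. B lineage cells had at least 2 Cd79a and no Cd3e UMIs, T cells at least 1 Cd3e and at most 1 Cd79a UMI, both with at most 2 Lyz2 UMIs; Lyz2+ cells had at least 5 Lyz2, no Cd3e and at most 1 Cd79a UMI. Counts were summed per lineage and scaled to CPM. Intervals are Poisson for levels, Clopper-Pearson for shares and conditional binomial for ratios, and cover counting error only. No model of replicates was possible. The ratios and intervals were tried on simulated Poisson counts per gene, the model that the intervals assume, so their coverage there was given in advance. Gating, doublet removal, thinning and binning were not simulated, and neither were UMIs concentrated in single cells. The Schlafen genes and the gene lists were chosen with earlier results of these data known. Named genes were all members; of the interferon-stimulated genes the 3 lowest and 3 highest ratios; of the lists of receptors, ligands, quiescence and transfer RNA, genes past 0.5 and up to 3 others by UMI total; and the 3 genes most like each member. edgeR 4.0.16 (R 4.3.3) gave the alternative scaling. Gene models were GENCODE M21 and promoters RefSeq, of the build of the counts. Gates that used 1 further gene are not reported here.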

Additional observations from a re-analysis of the deposited data

Results flagged for a closer look

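1 member pointed in opposite directions in neighbouring gates of 1 lineage, out of 57 pairs of populations looked at; the difference itself was not tested. In B lineage cells with Mki67 or Top2a the log2 ratio of Slfn5 with over without butyrate was 0.87 (0.22 to 1.52), from 43 UMIs in 277 cells and 42 UMIs in 186 cells, or 13.5 and 24.7 CPM. In the B lineage as a whole, 1 cell held 15 of 1224 Slfn5 UMIs without butyrate, and 1 held 22 of 797 with butyrate. Whether these cells lay in this gate was not examined. The counting interval does not cover such concentration, so the direction here may rest on 1 cell. With neither gene it was -0.68 (-0.81 to -0.55), from 61.4 and 38.3 CPM. Without plasma-gated cells, which were more frequent without butyrate, the first value was 0.72 (0.05 to 1.38) and the second -0.69 (-0.83 to -0.56).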

How the results depend on the processing

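No paired analysis was possible because each condition had 1 library, and no library could be left out. Of 337 ratios between the libraries, taken per member and population under the alternatives, 334 were below 0 and 319 lay within the counting interval of the value reported. The 337 repeat the same chosen members under each setting, and no share over all genes was formed for them, so nothing is read from their sign. The 3 above 0 were all Slfn9 in CD4+ T cells: 0.06 with at most 5% mitochondrial UMIs, 0.02 with totals that left out ribosomal protein, mitochondrial and immunoglobulin genes, and 0.24 with a stricter gate. The lowest value of that ratio was -0.63, with the mean of per-cell CPM. A pseudocount of 10 CPM shrinks low genes by construction, and with it the members at or past -0.5 numbered 1 in all cells, 0 in B lineage cells, 0 in CD8+ T cells and 1 in Cd4-Cd8a- T cells. In CD8+ T cells the count of 2 became 1 with thinning to 2000 UMIs, with the reduced totals, with edgeR TMM factors and with the stricter gate. In Cd4-Cd8a- T cells it became 1 with at most 5% mitochondrial UMIs, thinning, the mean of per-cell CPM and the stricter and the looser gate. In Lyz2+ cells it went from 3 to 0 with thinning, which left every member under 50 UMIs. The shares of all genes past the threshold were not formed under these settings, so these counts describe the members alone. Of all genes in all cells, 7.89% were lower and 6.71% higher at a minimum of 10 UMIs, and 1.99% and 0.959% at 200 UMIs. The log2 ratio of Slfn1 in CD8+ T over B lineage cells was 3.95 without any filter, 3.95 without doublet removal, 3.39 with the pseudocount and 3.79 with the looser gate in the library without butyrate, and 3.32 with the pseudocount and 4.20 with the looser gate in the other. Leaving out plasma-gated cells, S100a8 cells or shared barcodes was chosen after seeing the data. Depth limits Slfn3, Slfn4 and Slfn9, and Lyz2+ cells most.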
